A study of Mus musculus with 16 samples.

Results

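The MAP kinase phosphatases of the DUSP family were followed at the RNA level in bone marrow derived mast cells (BMMCs). The 10 genes Dusp1, Dusp2, Dusp4, Dusp5, Dusp6, Dusp7, Dusp8, Dusp10, Dusp14 and Dusp16 were chosen by symbol from the 39179 Ensembl genes counted, and each symbol matched 1 gene. BMMCs were grown for 4 weeks from the marrow of male C57BL/6 mice aged 8 to 10 weeks, which were either wild-type (PEP+/+) or mutant (PEP-/-) for the PEST-domain-enriched tyrosine phosphatase. Every sample was sensitized with IgE at 0.05 µg/ml for 3 h, so there were no unsensitized cells. The 4 treatments were IgE alone, IgE DNP with the antigen DNP at 200 ng/ml for 1 h, IgE DEX with the glucocorticoid dexamethasone (DEX) at 100 nM for 8 h, and IgE DNP DEX with both. Each of the 8 conditions had 2 replicates, which makes 16 samples of total RNA sequenced as mRNA libraries. The series calls the replicates biological but gives neither the number of mice nor of cultures, so p-values measure the spread between these samples. How the PEP allele was made, and whether the PEP+/+ mice were littermates, is not given in the sources used here.

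MAP kinase phosphatases switch off ERK, JNK and p38 by removing phosphate from both the threonine and the tyrosine of the activation loop. Dusp1, Dusp2, Dusp4 and Dusp5 encode inducible nuclear enzymes, Dusp6 and Dusp7 encode cytoplasmic enzymes that prefer ERK, and Dusp8, Dusp10 and Dusp16 encode enzymes that prefer JNK and p38. Dusp14 encodes a small member without the kinase-binding domain. In mast cells, cross-linking of IgE on its receptor activates all 3 kinase cascades, and Dusp1 is a known glucocorticoid-induced gene.

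Between 8612531 and 22143526 reads per sample were counted on genes. Ptpn22, which encodes PEP, had 130 to 2799 reads in PEP+/+ samples and 0 to 55 reads in PEP-/- samples. All 9 mast cell markers were expressed, with a summed level of 63080 to 103632 CPM, which are read counts scaled to a common library size. This sum was 63080 to 72197 CPM after IgE and 80536 to 103632 CPM after IgE DNP DEX. Of the other lineages, markers of basophils were the highest. Their sum, from Mcpt8, Prss34 and Cd200r3, moved with the treatments. It was 539 to 623 CPM after IgE, 750 to 882 CPM after IgE DNP and 228 to 392 CPM after IgE DEX, and 431 to 479 CPM with both stimuli. The 4 eosinophil markers, with Epx at 0, summed to 5.41 to 27.7 CPM and were likewise lower after IgE DEX (5.41 to 11.2 CPM) than after IgE DNP (14.7 to 27.7 CPM). The 6 macrophage markers summed to at most 8.42 CPM with C1qa at 0, the 6 neutrophil markers to at most 2.35 CPM with Camp at 0, and the 5 T cell markers to at most 0.305 CPM with Cd3e and Cd3g at 0. The 4 B cell markers reached 0.825 CPM with Ms4a1 at 0, the 4 dendritic cell markers 2.93 CPM with Cd209a at 0, and the 3 stromal cell markers 5.65 CPM with Col1a2 at 0. Above 1 CPM in some sample were Adgre1, Csf1r and Cd14 of the macrophage markers and Ly6g of the neutrophil markers. So were Siglecf and Ccr3 of the eosinophil markers, Xcr1 of the dendritic cell markers and Pdgfrb of the stromal cell markers. The macrophage sum was 2.34 to 5.83 CPM after IgE and 6.3 to 8.42 CPM after IgE DNP, and the dendritic cell sum 0.147 to 0.52 CPM and 1.04 to 2.93 CPM. The share of count-file reads not assigned to a gene was also higher in the IgE DNP DEX samples (38 to 49.6%) than in the IgE samples (29.1 to 37.1%). The part of these differences in the results was not tested. In bulk RNA, fewer cells of a type and less RNA per cell cannot be told apart.

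Promoter sequence was read for 9 of the 10 members from the RefSeq table (GRCm38.p6), which holds 300 bases for each of 32851 promoters, 250 before and 50 after the start site. Dusp4 has no entry there. The upstream stretches of Dusp1, Dusp5 and Dusp8 are shown because these 3 genes carried matches that were rare among all promoters and had large responses to DEX or DNP. Each is 200 bases long, runs from base -250 to base -51 of the RefSeq start site on the gene's own strand, and has the matches in capitals.
Dusp1 promoter, chr17:26508523-26508722, minus strand: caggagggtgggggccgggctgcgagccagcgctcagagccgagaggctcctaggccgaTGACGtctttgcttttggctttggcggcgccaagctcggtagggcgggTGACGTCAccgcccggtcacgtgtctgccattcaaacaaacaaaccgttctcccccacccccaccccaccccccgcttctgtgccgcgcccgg
Dusp5 promoter, chr19:53528895-53529094, plus strand: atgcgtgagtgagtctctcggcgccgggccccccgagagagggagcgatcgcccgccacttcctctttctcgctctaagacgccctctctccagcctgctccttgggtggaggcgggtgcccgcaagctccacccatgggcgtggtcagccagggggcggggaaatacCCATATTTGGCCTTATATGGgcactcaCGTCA
Dusp8 promoter, chr7:142095335-142095534, minus strand: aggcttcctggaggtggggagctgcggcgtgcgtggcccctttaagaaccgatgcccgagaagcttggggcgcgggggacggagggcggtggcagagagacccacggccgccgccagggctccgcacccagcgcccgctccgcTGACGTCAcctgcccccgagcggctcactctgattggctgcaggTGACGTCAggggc
In Dusp1 the capitals mark the cyclic AMP response element (CRE) core TGACG at -191 to -187 and the full palindrome TGACGTCA at -143 to -136. Dusp8 has the full palindrome at -107 to -100 and again at -63 to -56. In Dusp5 the capitals mark a pair of adjacent CArG boxes, the element bound by serum response factor, at -82 to -73 and -72 to -63, and a core on the opposite strand at -55 to -51. On both strands, the core was found in 5 of the 9 member promoters, among them Dusp2 at 6 to 10 and Dusp16 at -70 to -66, and in 20.8% of all promoters. The full palindrome, which contains the core on each strand, was in 2 of 9 members and 1.79% of all. The CArG box was in 1 of 9 members and 1.63% of all. The AP-1 site TGAGTCA, in 5.2% of all promoters, the glucocorticoid response element unit AGAACA, in 19% of all, and its palindrome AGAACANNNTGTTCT, in 0.00913% of all, had no match in the 9 windows. A match describes letters and not binding, and no match says only that the letters were not in these windows.

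The antigen response without DEX was called for each of the 10 genes. Averaged over the genotypes, IgE DNP against IgE gave 9 members that rose and 1, Dusp7, that fell, at an adjusted p under 0.05 in edgeR. Among all 13305 genes tested 9.07% rose and 7.58% fell. The median log2 fold change was 3.19 over the members, Dusp8 and Dusp14 included, and 0.00 over all genes. Dusp8 and Dusp14 passed the filter on low counts only through the DNP samples, so they had to differ. With at least 10 counts required in every sample these genes dropped out, and the other 8 members were called. When DEX was present in both arms (IgE DNP DEX against IgE DEX), 5 members rose and 1 fell, against 7.19% and 5.42% of all genes. The 5 include Dusp8 and Dusp14, and the stricter filter left 4 calls, with Dusp1, Dusp5 and Dusp16 up and Dusp7 down. DEX itself raised 3 members and lowered 0 in sensitized cells (IgE DEX against IgE), where 5.4% of all genes rose and 3.98% fell. In activated cells (IgE DNP DEX against IgE DNP) DEX raised 2 members and lowered 2, Dusp8 among them, against 5.67% and 4.99%, and the stricter filter left 3 calls. All these counts are from the fit without the replicate number. With it as a block, the last comparison had 3 members up and 4 down (33.3% of all genes called in either direction), and antigen under DEX had 6 up and 1 down (37.6%). DNP and DEX comparisons share samples with each other, so their values are set side by side only.

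**Figure D1:**
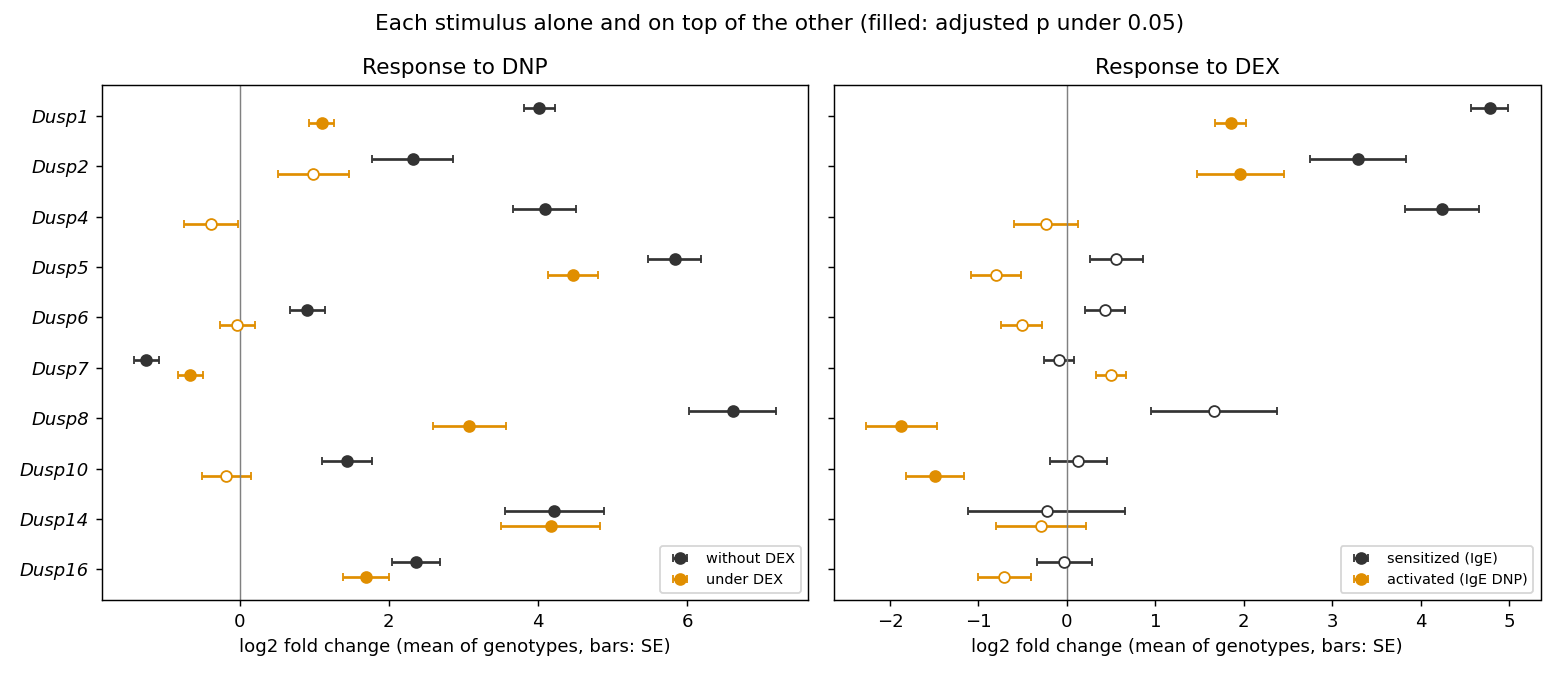
Points give the log2 fold change of each member, averaged over PEP+/+ and PEP-/-, with bars for the standard error, for DNP without and under DEX (left) and for DEX in sensitized and in activated cells (right). Filled points have an adjusted p under 0.05. Dusp4 moves from 4.09 to -0.38 on the left and from 4.24 to -0.24 on the right, while Dusp14 has 4.22 and 4.17 on the left, each with a standard error of 0.66.

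Dusp5, a nuclear phosphatase specific for ERK, lies on chromosome 19 from 53529109 to 53542431 (plus strand). In PEP+/+ it stood at 6.98 and 9.28 CPM with IgE alone, 263 and 404 CPM with DNP, 12.8 and 5.76 CPM with DEX and 193 and 214 CPM with both. The PEP-/- samples, in the same order, had 4.37 and 4.27, 271 and 414, 10.2 and 6.31, and 136 and 237 CPM. All DNP samples lay far above all samples without DNP. Antigen raised it 57-fold without DEX (log2 5.83, standard error 0.35, adjusted p = 1.12e-06) and 22.2-fold under DEX (log2 4.47, standard error 0.33, adjusted p = 8.45e-06). DEX in sensitized cells gave a log2 fold change of 0.56 (95% interval -0.10 to 1.23, adjusted p = 0.357). In activated cells each DEX sample lay below each sample without DEX, at a log2 fold change of -0.80 (adjusted p = 0.103). With the replicate block this was -0.79 with an adjusted p of 0.0152, and without the filter on low counts it was -0.78 with an adjusted p of 0.00257. Here and below, the fit without that filter had nearly the same fold changes but adjusted p-values on another scale. Calls that it added are therefore given but not taken as support. An antisense gene, AC137853.2, overlaps 547 bases of its exons and was not counted separately. The libraries were stranded, but the strand setting of the counting is not given in the sources used here, so without it reads of these genes cannot be told apart.

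Dusp1, a nuclear phosphatase of p38, JNK and ERK, lies on chromosome 17 from 26505590 to 26562128 (minus strand), an extent that includes an annotated transcript starting well upstream of the RefSeq start, and Ergic1 overlaps 11 of its exon bases on the other strand. It was near 1 CPM after IgE in every sample, with 0.955 and 1.04 CPM in PEP+/+ and 1 and 0.926 CPM in PEP-/-. DNP brought it to 13.1 and 17 CPM in PEP+/+ and 13.9 and 20 CPM in PEP-/-. DEX brought it to 18.2 and 19.9 CPM in PEP+/+ and 46.2 and 30.4 CPM in PEP-/-. The 4 samples with both had the highest levels, at 43.4 and 50.2 CPM in PEP+/+ and 70.7 and 71.8 CPM in PEP-/-, except that 1 PEP-/- IgE DEX sample (46.2) lay above 1 of them. Antigen raised Dusp1 16.2-fold without DEX (log2 4.02, standard error 0.21, adjusted p = 4.43e-07) and 2.14-fold under DEX (log2 1.10, standard error 0.17, adjusted p = 0.00162). DEX raised it 27.4-fold in sensitized cells (log2 4.78, standard error 0.21, adjusted p = 2.32e-07) and 3.61-fold in activated cells (log2 1.85, standard error 0.18, adjusted p = 5.87e-05). Dusp1 rose in all 4 comparisons. In the fits with the replicate block or without the filter on low counts, Dusp2 did so too.

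Dusp4, a nuclear phosphatase of ERK and JNK, lies on chromosome 8 from 34807297 to 34819894 (plus strand). After IgE it was at 5.14 and 3.73 CPM in PEP+/+ and 2.73 and 2.31 CPM in PEP-/-. IgE DNP gave 73.6 and 36.8 CPM in PEP+/+ and 64.4 and 53.8 CPM in PEP-/-. IgE DEX gave 116 and 47.2 CPM in PEP+/+ and 67.6 and 29.8 CPM in PEP-/-. The 3 stimulated states overlapped, since IgE DNP DEX gave 50.4 and 38.3 CPM in PEP+/+ and 70.8 and 35.2 CPM in PEP-/-. Replicate 1 lay above replicate 2 in all 8 conditions, by 0.73 on the log2 scale on average, so part of this overlap is a shift shared by same-numbered samples. Dusp4 rose 17.1-fold with DNP alone (log2 4.09, standard error 0.42, adjusted p = 5.83e-05) and 18.8-fold with DEX alone (log2 4.24, standard error 0.42, adjusted p = 7.79e-05). On top of DEX the change with DNP was -0.38 on the log2 scale (95% interval -1.17 to 0.41, adjusted p = 0.57). On top of DNP the change with DEX was -0.24 (95% interval -1.03 to 0.55, adjusted p = 0.778).

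Dusp2, a nuclear phosphatase of immune cells, lies on chromosome 2 from 127336159 to 127338376 (plus strand). It had 1.62 and 1.04 CPM in PEP+/+ IgE samples and 1.27 and 1.03 CPM in PEP-/- IgE samples. With DNP the values were 9.55 and 6.3 CPM in PEP+/+ and 5.74 and 4.02 CPM in PEP-/-. With DEX they were 13 and 3.24 CPM in PEP+/+ and 25.1 and 11.4 CPM in PEP-/-. With both stimuli they were 33.5 and 9.93 CPM in PEP+/+ and 33.5 and 21.1 CPM in PEP-/-. These 4 samples lay above the DNP samples and overlapped those with DEX alone, and replicate 1 lay above replicate 2 in all 8 conditions. Antigen raised Dusp2 5.01-fold without DEX (log2 2.32, standard error 0.54, adjusted p = 0.0118). That call was lost without PEP+/+ IgE replicate 2 (log2 2.19, adjusted p = 0.0527) or PEP-/- IgE replicate 2 (2.24, adjusted p = 0.0592). DEX raised it 9.8-fold in sensitized cells (log2 3.29, standard error 0.54, adjusted p = 0.00262) and 3.9-fold in activated cells (log2 1.96, standard error 0.49, adjusted p = 0.0254). Without PEP+/+ IgE DEX replicate 1 the value in sensitized cells was 2.64, and it was still called. Of the 8 fits that left out a library, the call in activated cells was kept in those without replicate 2 of PEP+/+ IgE DNP DEX or PEP-/- IgE DNP DEX. It was lost, in turn, without replicate 1 or 2 of PEP+/+ IgE DNP (log2 2.15 and 1.85, adjusted p = 0.0598 and 0.0809), replicate 1 or 2 of PEP-/- IgE DNP (2.12 and 1.86, adjusted p = 0.0627 and 0.0962), PEP+/+ IgE DNP DEX replicate 1 (1.42, adjusted p = 0.105) or PEP-/- IgE DNP DEX replicate 1 (1.80, adjusted p = 0.073). Antigen under DEX changed it by 0.99 on the log2 scale (adjusted p = 0.208), a value that was 1.04 with an adjusted p of 0.00186 in the fit with the replicate block and 0.99 with 0.00462 without the filter on low counts. Leaving out PEP+/+ IgE DEX replicate 1 gave 1.65, which was not called.

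**Figure D2:**
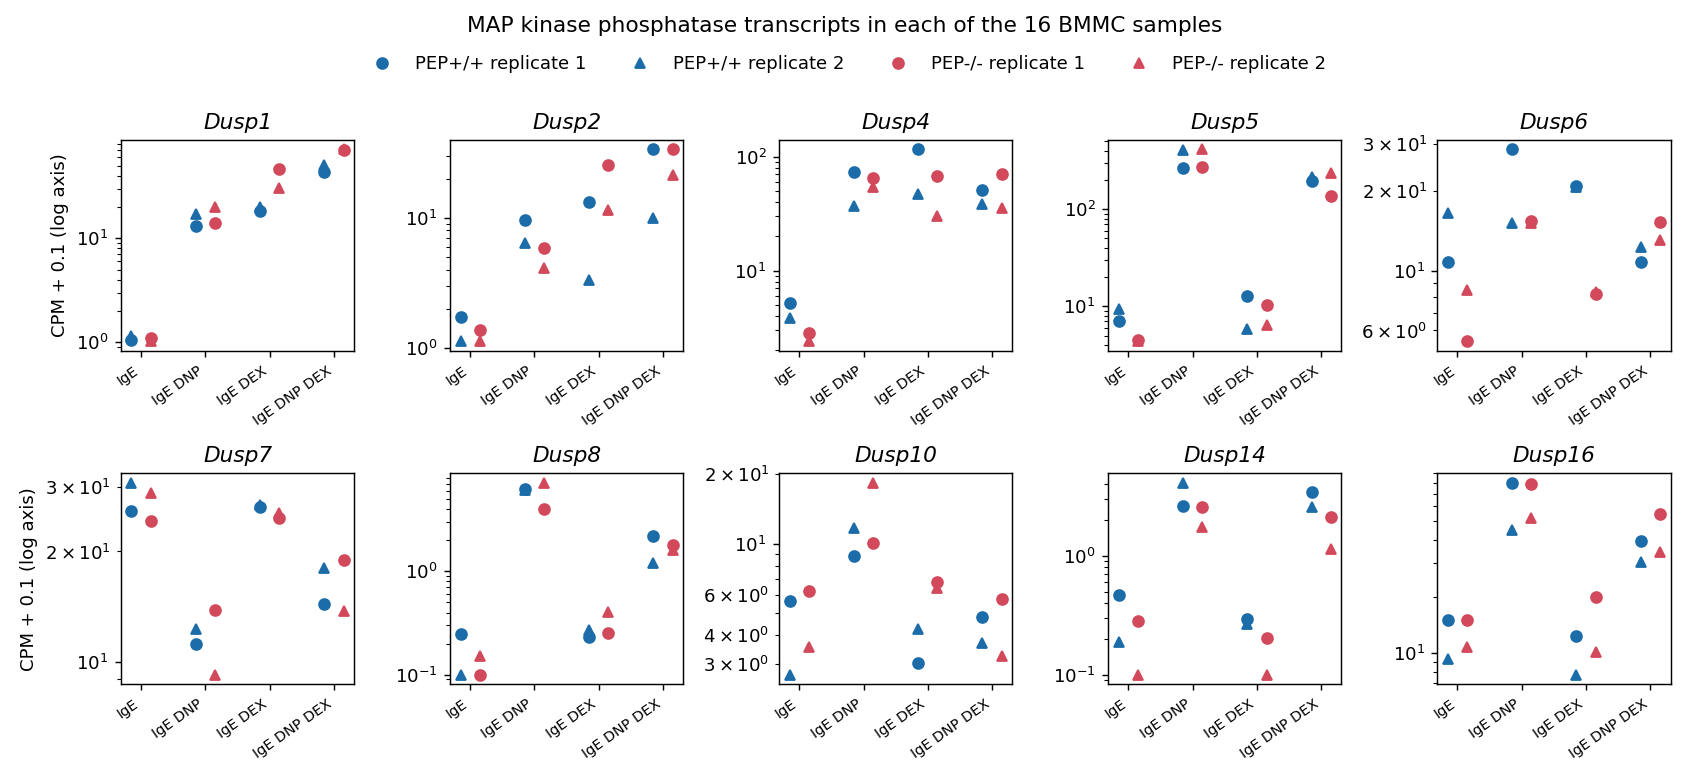
Each panel plots 1 member as CPM + 0.1 on a log axis against the treatment, with circles for replicate 1 and triangles for replicate 2, blue for PEP+/+ and red for PEP-/-. Dusp5 is at 263 to 414 CPM in the 4 IgE DNP samples against 4.27 to 9.28 CPM in the 4 IgE samples, and Dusp7 shows the opposite order, with 9.14 to 13.8 CPM against 24.1 to 30.7 CPM.

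The cytoplasmic, ERK-preferring pair differed from the nuclear genes and from each other. Dusp7, on chromosome 9 from 106368632 to 106375724 (plus strand), had 25.7 and 30.7 CPM in PEP+/+ and 24.1 and 28.7 CPM in PEP-/- after IgE. IgE DEX left it at 26.3 and 26.7 CPM in PEP+/+ and 24.6 and 25.3 CPM in PEP-/-. The DNP samples were lower, at 11.1 and 12.2 CPM in PEP+/+ and 13.8 and 9.14 CPM in PEP-/-, and the IgE DNP DEX samples, at 14.3, 17.9, 18.9 and 13.7 CPM, lay below all samples without DNP and overlapped the DNP samples. Dusp7 was the member that fell with antigen, 2.37-fold without DEX (log2 -1.25, standard error 0.17, adjusted p = 0.000511) and 1.58-fold under DEX (log2 -0.66, standard error 0.17, adjusted p = 0.0269). The second call was lost in 6 of 8 fits that left out a library. These were the fits without either replicate of PEP+/+ IgE DEX (-0.67 and -0.66, adjusted p = 0.0666 and 0.0816) or PEP-/- IgE DEX (-0.67 and -0.66, adjusted p = 0.0702 and 0.0773), without PEP+/+ IgE DNP DEX replicate 1 (-0.57, adjusted p = 0.106) and without PEP-/- IgE DNP DEX replicate 2 (-0.54, adjusted p = 0.129). It was also lost without the filter on low counts (adjusted p = 0.0614) and when only the conditions compared were fitted (adjusted p = 0.064). DEX in activated cells gave 0.50 (adjusted p = 0.0987), which was 0.51 with an adjusted p of 0.0216 with the replicate block. DEX in sensitized cells gave -0.09 (95% interval -0.46 to 0.28).

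Dusp6, the other cytoplasmic member, lies on chromosome 10 from 99263231 to 99267489 (plus strand). Its levels overlapped between the treatments. The PEP+/+ samples had 10.7 and 16.4 CPM with IgE alone, 28.5 and 15 CPM with DNP, 20.7 and 20.6 CPM with DEX and 10.7 and 12.2 CPM with both. The PEP-/- samples, in this order, had 5.37 and 8.38, 15.3 and 15.1, 8.09 and 8.24, and 15.2 and 13 CPM. Antigen raised it 1.88-fold without DEX (log2 0.91, standard error 0.23, adjusted p = 0.0181), the smallest of the 9 increases. The call was lost without PEP+/+ IgE replicate 1 (0.77, adjusted p = 0.0739), PEP-/- IgE replicate 1 (0.77, adjusted p = 0.0719), PEP+/+ IgE DNP replicate 1 (0.63, adjusted p = 0.0801) or PEP-/- IgE DNP replicate 2 (0.91, adjusted p = 0.0551), and when only the conditions compared were fitted (adjusted p = 0.0835). Under DEX the antigen change was -0.03 (95% interval -0.53 to 0.47), and DEX gave 0.43 in sensitized and -0.51 in activated cells, with adjusted p-values of 0.358 and 0.195.

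Among the members that prefer JNK and p38, Dusp8 had the largest fitted antigen response of the members and lies on chromosome 7 from 142079490 to 142095843 (minus strand). Its 4 IgE samples had 0 to 2 reads each (at most 0.147 CPM) and its 4 IgE DEX samples 2 to 4 reads (0.13 to 0.305 CPM). With DNP it had 6.24 and 6.08 CPM in PEP+/+ and 3.94 and 7.15 CPM in PEP-/-. With DNP and DEX it had 2.08 and 1.12 CPM in PEP+/+ and 1.72 and 1.52 CPM in PEP-/-, all below the DNP samples and all above the samples without DNP. Summed over samples, 298 reads after IgE DNP stood against 3 after IgE, a ratio of 111 per read sequenced with an exact 95% binomial interval of 37.5 to 540 for counting error only. The fitted antigen change was 6.61 on the log2 scale (standard error 0.58, adjusted p = 1.94e-05), a value that depends on the prior count and that went to 8.25 without PEP+/+ IgE replicate 1 and to 7.68 without PEP-/- IgE replicate 2, the samples holding the 3 reads. Under DEX antigen raised it 8.44-fold (log2 3.08, standard error 0.49, adjusted p = 0.00192). Dusp8 passed the filter on low counts only through the DNP samples, so it had to differ in these antigen comparisons. DEX lowered Dusp8 3.66-fold in activated cells (log2 -1.87, standard error 0.40, adjusted p = 0.0129). That call was lost without PEP+/+ IgE DNP DEX replicate 2 (-1.65, adjusted p = 0.0544), PEP-/- IgE DNP replicate 2 (-1.61, adjusted p = 0.0635) or PEP-/- IgE DNP DEX replicate 2 (-1.81, adjusted p = 0.0527). Gm32786, which was not counted separately, overlaps 66 exon bases on the other strand.

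Dusp10, on chromosome 1 from 184013302 to 184075636 (plus strand), had 5.51 and 2.6 CPM in PEP+/+ and 6.1 and 3.45 CPM in PEP-/- after IgE. With DNP it had 8.7 and 11.6 CPM in PEP+/+ and 9.93 and 18.3 CPM in PEP-/-. The increase was absent from the samples that also had DEX, with 4.69 and 3.62 CPM in PEP+/+ and 5.63 and 3.14 CPM in PEP-/-, which overlapped the IgE samples and those with DEX alone (2.93, 4.16, 6.69 and 6.31 CPM). Antigen raised Dusp10 2.72-fold without DEX (log2 1.44, standard error 0.33, adjusted p = 0.0105) and under DEX gave -0.18 (95% interval -0.89 to 0.54). The first call was lost without PEP-/- IgE replicate 2 (1.26, adjusted p = 0.0542) or PEP-/- IgE DNP replicate 2 (1.18, adjusted p = 0.0536). DEX lowered it 2.8-fold in activated cells (log2 -1.49, standard error 0.33, adjusted p = 0.0144) and gave 0.13 in sensitized cells (95% interval -0.58 to 0.84). The decrease was not called without PEP+/+ IgE DNP DEX replicate 2 (-1.38, adjusted p = 0.0561), PEP-/- IgE DNP replicate 2 (-1.22, adjusted p = 0.0658) or PEP-/- IgE DNP DEX replicate 2 (-1.29, adjusted p = 0.0611).

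Dusp16, which prefers JNK, lies on chromosome 6 from 134715468 to 134792625 (minus strand). It rose from 14.9 and 9.28 CPM in PEP+/+ and 15 and 10.7 CPM in PEP-/- after IgE to 80.2 and 45.1 CPM in PEP+/+ and 78.8 and 52.2 CPM in PEP-/- after IgE DNP. With both stimuli it had 39.1 and 30.3 CPM in PEP+/+ and 54.7 and 34.3 CPM in PEP-/-, against 12.2 and 7.61 CPM and 19.7 and 10.1 CPM with DEX alone. All DNP samples lay above all samples without DNP, and replicate 1 lay above replicate 2 in all 8 conditions. The antigen increase was 5.14-fold without DEX (log2 2.36, standard error 0.32, adjusted p = 0.000392) and 3.22-fold under DEX (log2 1.69, standard error 0.31, adjusted p = 0.00456). DEX gave -0.03 in sensitized cells and -0.71 in activated cells (adjusted p = 0.177). The second value was -0.68 with an adjusted p of 0.000128 with the replicate block, and it had an adjusted p of 0.0248 without the filter on low counts.

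Dusp14, on chromosome 11 from 84048041 to 84069261 (minus strand), had 0 to 5 reads in each IgE sample and 0 to 4 in each IgE DEX sample. The 4 IgE DNP samples had 27 to 36 reads (1.65 to 4.05 CPM) and the 4 IgE DNP DEX samples 11 to 40 reads (1.05 to 3.38 CPM). Reads therefore appeared with antigen whether or not DEX was present. The ratio of summed reads was 17.1 without DEX (95% interval 8.44 to 40.6) and 16.6 under DEX (8.42 to 37.4), for counting error only. Dusp14 passed the filter on low counts only through the DNP samples, so it had to differ in these antigen comparisons. The fitted log2 changes were 4.22 (standard error 0.66, adjusted p = 0.00115) and 4.17 (standard error 0.66, adjusted p = 0.00183). They depend on the few reads without antigen, since the first went to 5.80 without PEP-/- IgE replicate 1 and to 4.90 without PEP+/+ IgE replicate 1 and 3.59 without PEP-/- IgE replicate 2, and the second to 5.67 without PEP-/- IgE DEX replicate 1. DEX in activated cells gave -0.29 (95% interval -1.40 to 0.83, adjusted p = 0.818).

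Whether DEX changed the antigen response was tested as an interaction, the log2 response to DNP under DEX minus that without DEX. It was below 0 for 9 members and above 0 for Dusp7. The median was -1.35 over the members and 0.00 over all genes. At an adjusted p under 0.05, 2 members were called, both lower, while 0.271% of all genes were called lower and 0.0601% higher. Dusp4 had the largest value, -4.47 (standard error 0.54, adjusted p = 0.00762), and Dusp1 followed among the called genes with -2.92 (standard error 0.27, adjusted p = 0.00229). Both interactions were called in all 16 fits that left out a library. Dusp8 had -3.53 (95% interval -5.34 to -1.73, adjusted p = 0.199) and Dusp5 -1.36 (95% interval -2.26 to -0.46, adjusted p = 0.64). Both were called without the filter on low counts (adjusted p = 0.0217 and 0.00208), at nearly the same log2 values. Since the adjusted p-values of that fit are on another scale, these calls are not taken as support. The Dusp8 value went to -5.17 without PEP+/+ IgE replicate 1 and to -4.60 without PEP-/- IgE replicate 2. For Dusp10 the value was -1.62 (adjusted p = 0.483), for Dusp6 -0.94 (adjusted p = 0.871), for Dusp2 -1.33 (adjusted p = 1, and -0.67 without PEP+/+ IgE DEX replicate 1), for Dusp16 -0.67 (adjusted p = 1) and for Dusp7 0.58 (adjusted p = 1). Dusp14 was at -0.05 with a 95% interval of -2.62 to 2.51, too wide to tell a kept from a changed response.

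Between the genotypes no member was past the threshold in the fit without the replicate block. Averaged over the treatments, 0 of 10 members were called by edgeR between PEP-/- and PEP+/+, against 1.59% of all genes. An unadjusted p under 0.05 was found for 3 members and for 1884 of all 13305 genes. Dusp6 was nearest, at -0.63 on the log2 scale (standard error 0.16, adjusted p = 0.0799), with lower values in PEP-/- after IgE and IgE DEX and higher values in PEP-/- after IgE DNP DEX. It was called with the replicate block (adjusted p = 0.00791), with DESeq2 (-0.62, adjusted p = 0.0129), without the filter on low counts (adjusted p = 0.027) and without PEP+/+ IgE DNP replicate 2 (-0.73, adjusted p = 0.0496). The block added Dusp1 (0.44, adjusted p = 0.047 against 0.141 without it) and Dusp16 (0.27, adjusted p = 0.0221 against 0.665), both higher in PEP-/-, and called 17.4% of all genes. Within single treatments 0 members were called in any of the 4, where 1 gene in each, or 0.00752% of all, was called. Unadjusted p-values under 0.05 were found for 1 member with IgE alone, 0 with DNP, 2 with DEX and 1 with both. In the same order, 528, 605, 385 and 298 of all 13305 genes reached that level. After IgE DEX, Dusp1 was higher in both PEP-/- samples than in both PEP+/+ samples (log2 1.01, standard error 0.24, adjusted p = 1), and the block called it (adjusted p = 0.0409, with 0.564% of all genes called). In the same treatment Dusp6 was lower in both PEP-/- samples (log2 -1.34, standard error 0.32, adjusted p = 1, and 0.0505 with the block).

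**Figure D3:**
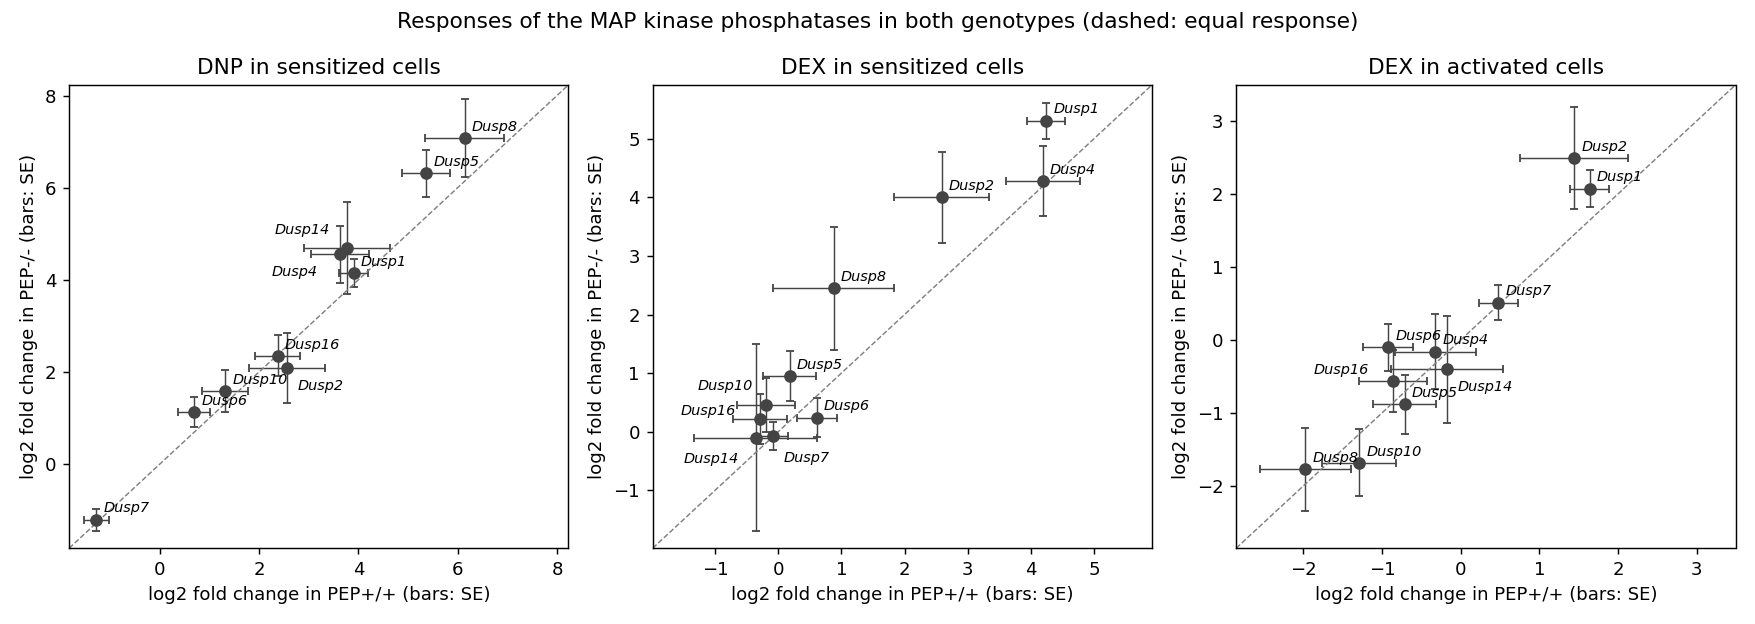
The log2 fold change of each member in PEP-/- is plotted against that in PEP+/+, with bars for the standard errors and a dashed line where both are equal, for DNP in sensitized cells, DEX in sensitized cells and DEX in activated cells. Dusp1 in the middle panel is at 4.24 in PEP+/+ and 5.31 in PEP-/-.

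The responses themselves were compared between the genotypes by a genotype by antigen interaction and by genotype by DEX interactions in sensitized and activated cells. Each had 0 members and 0% of all genes called by edgeR, with and without the replicate block. Without the block, 30, 40 and 95 of all 13305 genes had an unadjusted p under 0.05. These are far fewer than that threshold gives when no gene differs, so these tests were conservative. The 0 calls therefore do not show equal responses in both genotypes. Among the members an unadjusted p under 0.05 was reached by 0, 1 and 0 genes. The 1 gene was Dusp1, whose DEX response in sensitized cells was 18.9-fold in PEP+/+ and 39.6-fold in PEP-/-, a difference of 1.07 on the log2 scale (95% interval 0.16 to 1.97, adjusted p = 1, edgeR). Taken separately, antigen raised 6 members and lowered Dusp7 in PEP+/+ (5.9% of all genes called) and did the same in number in PEP-/- (7.22%), and Dusp2, Dusp6 and Dusp10 were not called in either. The 6 include Dusp8 and Dusp14, which passed the filter only through the DNP samples. With the block 8 rose in PEP+/+ (21.1%) and 9 in PEP-/- (26.2%). Antigen raised Dusp5 41.1-fold in PEP+/+ (log2 5.36, standard error 0.48) and 79.1-fold in PEP-/- (log2 6.31, standard error 0.51). The difference of these responses was 0.95 on the log2 scale (95% interval -0.34 to 2.23) and was not called. Mean Dusp5 was 8.13 CPM in PEP+/+ and 4.32 CPM in PEP-/- after IgE, and 334 and 342 CPM after IgE DNP. DEX in sensitized cells raised Dusp1 and Dusp4 in PEP+/+ (3.18%) and Dusp1, Dusp2 and Dusp4 in PEP-/- (3.34%). With the block Dusp2 was called in both (15.6% and 14.7%). DEX in activated cells raised Dusp1 alone, 3.12-fold in PEP+/+ (3.03%) and 4.19-fold in PEP-/- (3.28%). With the block 2 members rose in each genotype, 4 fell in PEP+/+ (18.9%) and 3 fell in PEP-/- (18.1%).

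**Figure D4:**
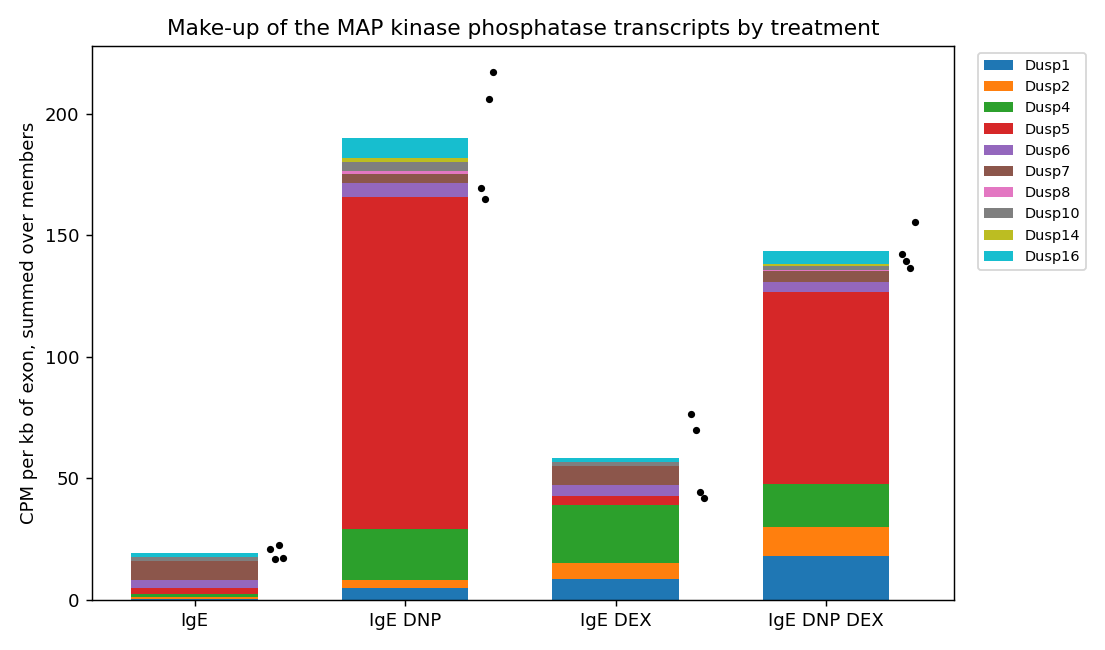
Stacked bars give the mean level per kb of exon (CPM per kb) of the 10 members by treatment, averaged over 4 samples, and the dots beside each bar give the summed level of each sample. The bars reach 19.2, 190, 58.2 and 143 from left to right, with Dusp5 as the main part of both DNP bars.

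Levels of different genes were compared per length, as CPM per kb of exon (RPKM). After IgE, Dusp7 led with 8.14 ± 0.882 (SD, n = 4), followed by Dusp6 at 3.26 ± 1.49 and Dusp5 at 2.52 ± 0.968, which did not differ beyond their spread. Dusp16 (1.6 ± 0.376), Dusp10 (1.45 ± 0.546) and Dusp4 (1.27 ± 0.459) were likewise within their spread, above Dusp2 (0.619 ± 0.137) and Dusp1 (0.296 ± 0.0153). Dusp14 and Dusp8 were last in all 4 treatments. With DNP the order changed to Dusp5 at 137 ± 33.2, Dusp4 at 20.9 ± 5.76 and Dusp16 at 8.22 ± 2.31. Dusp6 (5.89 ± 2.13), Dusp1 (4.83 ± 0.957), Dusp10 (3.98 ± 1.4), Dusp7 (3.44 ± 0.581) and Dusp2 (3.2 ± 1.15) followed, each within the spread of its neighbour. With DEX Dusp4 led at 23.8 ± 13.6, and Dusp1 (8.65 ± 3.89), Dusp7 (7.67 ± 0.277) and Dusp2 (6.59 ± 4.51) overlapped. With both stimuli Dusp5 stood at 78.8 ± 17.6, and Dusp1 (17.8 ± 4.35), Dusp4 (17.8 ± 5.89) and Dusp2 (12.2 ± 5.65) overlapped. Dusp5 made up 13.1% of the summed level with IgE alone, 72.1% with DNP, 6.09% with DEX and 54.9% with both.

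Over the 8 condition means (log2 CPM), which share their libraries, the members fell into patterns that are given as a description. Dusp1 and Dusp2 ran together (Pearson's r = 0.98), with Dusp4 at 0.90 to Dusp1. Dusp5 ran with Dusp14 (0.98), Dusp8 (0.97) and Dusp16 (0.97), and Dusp7 ran against Dusp8 (-0.99) and Dusp16 (-0.98). Since Dusp8 and Dusp14 had 0 to 5 reads in each sample without DNP, their log2 values there depend on the prior count of 2. Their correlations and closest genes therefore rest largely on the split between conditions with and without DNP. Among 5950 other named genes that spanned at least 1 on the log2 scale, those most like Dusp5 were Zbtb21 (0.998), Map2k3 (0.997) and Plk3 (0.997). Those most like Dusp1 were Slc31a2 (0.992), Sytl3 (0.989) and Gm26226 (0.988), for Dusp2 they were Gm11212 (0.990), Sap30 (0.988) and Rab11fip4 (0.978), and for Dusp4 they were Irs2 (0.990), Mdfic (0.966) and Jcad (0.961). Dusp16 was closest to Nfatc1 (0.995), 1700012B09Rik (0.995) and Atp13a4 (0.994), Dusp8 to Arih2 (0.994), Tox4 (0.993) and Mir155hg (0.993), and Dusp14 to Prpf38a (0.995), Tuba1c (0.994) and Eif6 (0.993). For Dusp7 the closest genes were Tmem129 (0.998), Uck1 (0.992) and Rab3a (0.991). Dusp6 and Dusp10 had the weakest partners, with Ndst3 (0.970), Heatr1 (0.916) and Ctnnal1 (0.908) for Dusp6 and Ppp1r3b (0.948), Gzmd (0.946) and Arhgap5 (0.940) for Dusp10.

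Genes of the ERK, JNK and p38 cascades were read from lists chosen with earlier results of these data known. The 15 ERK cascade genes tested had a median log2 change of 0.20 with antigen without DEX, against 0.00 over all genes. Map3k8, a kinase that activates the ERK pathway, rose from 3.89 ± 2.21 to 51.1 ± 6.89 CPM (SD, n = 4, log2 3.78, adjusted p = 1.47e-06). The antigen by DEX interaction of Map3k8 was called lower (-2.07, standard error 0.31, adjusted p = 0.0198), as were 36 of the 44 genes called in that test. Of 10 p38 cascade genes, antigen raised 4 and lowered 0 (median 0.64), against 9.07% and 7.58% of all genes. The 4 were Map2k3 (2.23), Mapkapk3 (1.89), Mapkapk2 (1.21) and Mapk14 (0.85). They encode a p38-activating kinase, a pair of p38-dependent kinases and p38 alpha itself. DEX in sensitized cells raised 3 of the 10, Map2k6 (2.16), Map3k6 (1.90) and Mapk14 (0.96), and 5.4% of all genes. Of 13 JNK cascade genes, antigen raised Map3k11 (1.01) and Map3k2 (0.65) and lowered Map3k1 (-0.78), which rose with DEX by 1.33 in sensitized and 1.30 in activated cells.

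Other phosphatases of the superfamily were read in the same way. Of 19 further dual-specificity and MAP kinase tyrosine phosphatases, 10 were expressed highly enough to test, and antigen without DEX raised 0 and lowered 1, Dusp28 (-0.67, adjusted p = 0.0259). The median of the 10 was 0.03, and 9.07% of all genes rose and 7.58% fell. With the replicate block 4 of the 10 rose and 3 fell, while 37.9% of all genes were called in either direction. DEX in sensitized cells raised Dusp11 (0.40) and lowered Ptpn7 (-0.64), DEX in activated cells raised Dusp28 (0.76) and Dusp23 (0.56), and antigen under DEX raised Dusp9 (1.23).

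Of 17 transcripts known to follow ERK activity, 13 rose and 1 fell with antigen without DEX (median 3.28), and 12 rose and 1 fell under DEX (median 2.04). Among all genes 9.07% rose and 7.58% fell without DEX, and 7.19% rose and 5.42% fell under DEX. The largest increases without DEX were Fosb (7.60), Egr2 (6.36), Egr3 (6.20), Maff (5.63) and Fosl1 (5.07), all early transcription factors, and Etv5, named after its value was seen, fell (-0.95). Fosl1 had at most 0.154 CPM after IgE and 0.305 CPM after IgE DEX. It passed the filter on low counts only through the DNP samples, so it had to differ. Maff averaged 0.158 CPM after IgE, so its fitted values rest on few reads. DEX in activated cells raised 0 and lowered 2, Phlda1 (-2.47) and Spry2 (-0.50), an inhibitor of the ERK pathway. With the block 1 rose and 10 fell, while 33.3% of all genes were called in either direction. The antigen by DEX interaction was called for Maff (-4.29, adjusted p = 0.0487) and Spry2 (-1.12, adjusted p = 0.0346). Of 11 established glucocorticoid targets, DEX raised 7 and lowered 0 in sensitized cells (median 2.64 against 0.00 over all genes), among them Tsc22d3 (3.13), Fkbp5 (3.26), Zbtb16 (7.64), Nfkbia (2.96) and Klf9 (2.92). There 5.4% of all genes rose and 3.98% fell. Zbtb16 had at most 0.0867 CPM after IgE and 0 CPM after IgE DNP. It passed the filter on low counts only through the DEX samples, so it had to differ. In activated cells DEX raised 6 and lowered 2 (median 1.18), against 5.67% and 4.99% of all genes. Among these were Tsc22d3 at 3.74, Fkbp5 at 3.17 and Ddit4 at 3.15, and Sgk1 at -1.93 and Errfi1, named after its value was seen, at -1.30. Nfkbia (-2.78) and Sgk1 (-2.40) had called interactions below 0, as did 36 of the 44 genes called, and Ddit4 (1.11) had one above 0. Antigen lists share their libraries with the members, and no list was tested as a set.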

How the data were processed

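RNA was measured by stranded mRNA sequencing in 16 BMMC samples, 2 replicates of each of 8 conditions, grouped by the labels. The authors aligned the reads with TopHat2 2.0.11 to GRCm38 with Ensembl 75 and deposited HTSeq 0.5.3 counts per gene, without normalization. Reads with several alignments or genes were not counted, and 5 rows of unassigned reads (29.1 to 49.6% of each file) were left out. The IgE dose follows the labels, and the methods state another. Of the 39179 identifiers, 37693 were found in GENCODE M21, which gave names, positions and exon lengths.

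Tests used the quasi-likelihood functions of edgeR 4.0.16 (R 4.3.3) with TMM factors, 1 coefficient per condition over the 16 samples, and Benjamini-Hochberg adjustment. The filter filterByExpr (minimum count 10) kept 13305 genes. CPM per kb used GENCODE exon lengths. The common biological coefficient of variation was 0.312. The numbered samples of the labels were taken as replicate 1 and the lettered ones as replicate 2. Deviations from the condition means of same-numbered samples correlated in all 28 pairs of conditions (0.45 to 0.80), so the number was also fitted as a block. The other alternatives were DESeq2 1.42.0, its size factors, no filter, a stricter filter (each sample at 10 counts or more), fits of the compared conditions alone, and each library left out. The fit was also run on simulated counts drawn independently for each sample. These lack the shared deviation of same-numbered samples, so they cannot check the fit without the block on that point.

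Members and gene lists were chosen with earlier results of these data known. Named were all members, per list the up to 5 called genes with the largest change in a comparison, and the 3 genes with the most similar pattern to each member. Some genes of the lists are not reported here. Median depth was 12814043.5 reads.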

Additional observations from a re-analysis of the deposited data

Results flagged for a closer look

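The antigen responses of Dusp1 and Dusp4 differed between cells with and without DEX in the test of that difference. For Dusp1 the interaction was -2.92 on the log2 scale, between an antigen response of 4.02 without DEX and 1.10 under DEX. It ranged from -3.06 to -2.75 over the 16 fits that each left out a library. The interaction compares ratios and does not show a smaller gain in CPM. Mean Dusp1 went from 0.981 to 16 CPM with antigen without DEX and from 28.6 to 59 CPM under DEX. For Dusp4 the interaction was -4.47, between 4.09 and -0.38, with a range of -4.73 to -4.08. These were the 2 members called of the 10 compared, with and without the replicate block. Dusp5 and Dusp8 were called as well when no filter on low counts was used, which is not taken as support.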

How the results depend on the processing

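The member counts for antigen, for DEX in sensitized cells and for antigen under DEX stayed within 1.5 times under each alternative, and those for the genotype interactions stayed at 0. The count for DEX in activated cells went from 4 to 7 with the replicate block and to 1 to 3 over the fits that left out a library. It was 1 without PEP-/- IgE DNP replicate 2 and 2 without replicate 2 of PEP+/+ IgE DNP DEX or PEP-/- IgE DNP DEX. The count for the genotype went from 0 to 1 with DESeq2, 1 without the filter and 3 with the block, and was 0 to 1 when a library was left out (1 without PEP+/+ IgE DNP replicate 2). The antigen by DEX interaction went from 2 to 4 without the filter. The cause was not tested. Of the 60 values of single members that average over genotypes or treatments, the block brought 7 past the threshold and took 0 below it. The calls it added within a genotype or treatment are given beside those results, and it changed no other call. None of the 60 changed sign under the block, DESeq2, its size factors, either filter or the fit of the conditions compared. Leaving out a library turned the sign of values that were not called. In sensitized cells the DEX response ranged from -1.73 to 1.35 for Dusp14, -0.32 to 0.17 for Dusp16 and -0.09 to 0.46 for Dusp10. In activated cells it ranged from -0.51 to 0.07 for Dusp4. The antigen response under DEX ranged from -0.65 to 0.01 for Dusp4, -0.07 to 0.04 for Dusp6 and -0.40 to 0.02 for Dusp10, the interaction from -1.64 to 1.45 for Dusp14, and the genotype difference from -0.71 to 0.64 for Dusp8, -0.03 to 0.48 for Dusp2 and -0.13 to 0.02 for Dusp7. With at least 10 counts in every sample Dusp8 and Dusp14 gave no value. Their 0 to 5 reads without antigen limit any statement on DEX in sensitized cells.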
